A study of Mus musculus with 12 samples.

Results

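The genes described here are 38 genes of the unfolded protein response and the secretory endoplasmic reticulum (ER), taken by symbol from the 35688 genes of a colon transcript table. The tissue was the full-thickness colon of 2-week-old mice, 1 animal per library, in 6 Il10-/- Tnfr1-/- libraries and 5 Il10-/- libraries. All animals were labelled Il10-/-, for Il10, which encodes interleukin 10, a cytokine that restrains intestinal inflammation and whose loss causes spontaneous colitis in mice. The Il10-/- Tnfr1-/- animals were labelled as also lacking TNF receptor 1, encoded by Tnfrsf1a. The series title poses the question of how that deletion affects early-life colitis, and no wild-type colon was analysed here. The values are length-divided abundances scaled by the authors, summed over the transcripts of a gene. Division by length lets the levels of different genes be set side by side, while comparison between libraries rests on the authors' scaling. The values are not counts, and the depth behind each value is unknown.

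The unfolded protein response adjusts the folding capacity of the ER to its load of new secretory proteins. Sensors in the ER membrane start its 3 arms: IRE1 (genes Ern1 and, in mucosal epithelium, Ern2), PERK (Eif2ak3) and ATF6 (Atf6). Activated IRE1 cuts a short intron out of the Xbp1 mRNA in the cytoplasm, and the spliced message encodes a potent transcription factor. PERK phosphorylates the initiation factor eIF2alpha, which lowers general translation while favouring that of Atf4, and ATF6 is cut in the Golgi to release a transcription factor for ER chaperone genes. In the colon the response is known best from goblet cells, which fold very large mucins, and from antibody-secreting plasma cells.

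The libraries' abundances summed to between 804109 and 1067680 in Il10-/- Tnfr1-/- colons and between 912899 and 1378971 in Il10-/- colons, and 41.7% to 55.1% of transcripts were at 0 in a library. Tnfrsf1a, the targeted gene, averaged 14.8 ± 2.34 in Il10-/- Tnfr1-/- colons (SD, n = 6), with a highest value of 16.98, and 47.9 ± 18.5 in Il10-/- colons (SD, n = 5), with a lowest value of 30.6. The genotypes did not overlap for that gene, in the direction of the labels, although it did not pass the test across all genes (limma, Benjamini-Hochberg adjusted p = 0.125). Il10 was listed in every library, at 5.14 ± 1.56 in Il10-/- Tnfr1-/- (highest 7.23) and 15.3 ± 6.44 in Il10-/- colons (lowest 9.06), again without overlap (log2 fold change -1.44, limma unadjusted p = 0.000226, adjusted p = 0.536). The labels do not say which part of either gene was deleted, so neither value shows loss of the gene's function. Sample names start with the digits 1 to 4, whose meaning the labels do not give. Names starting with 1 are found in both genotypes (2 Il10-/- Tnfr1-/- and 3 Il10-/- libraries), and the other digits cannot be told apart from genotype.

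No gene of the unfolded protein response differed between the genotypes past the threshold: 0 of the 35 members tested had an adjusted p under 0.05 (limma on log2(value + 0.5), adjusted over all genes tested), against a background of 0 of 13561 genes. Trib3, Chac1 and Derl3 had too low a level to be tested, under the filter of a value over 1 in at least 5 libraries. At an unadjusted p under 0.05, 4 of 35 members (11.4%) were called, against 8.34% of all genes tested. That count was not stable: it was 2 without Il10-/- replicate 6 (against 3.55% of all genes), 7 without Il10-/- replicate 3 (against 10.6%), 4 without Il10-/- replicate 1 (against 18.1%) and 2 with GC and length trends removed (against 7.57%). Dnajb9 was the 1 member higher in Il10-/- Tnfr1-/- colons, against a background of 4.74%, and Creld2, Sec61a1 and Sec61b were lower, against a background of 3.6%. Of the members tested, 11 had a positive and 24 a negative log2 fold change (Il10-/- Tnfr1-/- minus Il10-/-), with a median of -0.11, while the median of all genes tested was 0.05 and 55.5% of them were positive. That split depended on the scaling: 18 of 35 members were positive when each library was scaled to an equal total, a scaling that moved the median of all genes to 0.19. Fold changes on this scale understate the change of low genes.

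The IRE1 arm began with low sensor levels. Ern1, which encodes the widely expressed IRE1alpha, had abundances of 2.91, 3.60 and 6.11 (lowest, median and highest of 6) in Il10-/- Tnfr1-/- colons, and of 4.87, 3.59, 1.98, 3.11 and 1.55 in Il10-/- colons. The ranges overlapped over most of their extent, and the highest value belonged to Il10-/- Tnfr1-/- replicate 3. Ern1 had a log2 fold change of 0.38 ± 0.27 (SE, limma unadjusted p = 0.185, adjusted p = 0.566). Ern2, the mucosal IRE1beta, had abundances of 4.005, 8.70 and 25.2 (lowest, median and highest) in Il10-/- Tnfr1-/- colons, and of 9.39, 11.8, 5.66, 14.4 and 6.14 in Il10-/- colons. Il10-/- Tnfr1-/- replicate 3 again held the highest value and replicate 6 the lowest, so that 1 genotype spanned the whole range. For Ern2 the log2 fold change was 0.06 ± 0.39 (limma adjusted p = 0.955) with a 95% interval of -0.79 to 0.90. The mean log2 ratio of Ern2 to Ern1 was 1.18 in Il10-/- Tnfr1-/- and 1.505 in Il10-/- colons, a difference of -0.32 (exact two-sided permutation p = 0.301 over 462 assignments, 0.602 adjusted over 4 ratios).

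Xbp1, the substrate of IRE1, is on chr11:5520659-5525893 (plus strand, GENCODE M21 on GRCm38). Its gene total had abundances of 70.9, 92.3 and 107 (lowest, median and highest) in Il10-/- Tnfr1-/- colons, and of 200.2, 102, 76.1, 112 and 93.4 in Il10-/- colons. Il10-/- replicate 1 stood far above the other 10 libraries, which overlapped. Xbp1 had a log2 fold change of -0.26 ± 0.23 (limma unadjusted p = 0.263, adjusted p = 0.608). The gene total does not separate the spliced from the unspliced message. The 26-base intron that IRE1 removes lies in exon 4 of 5 of the main transcript, from base 815 of it, and is shown in capitals within 20 flanking bases on each side (chr11:5524259-5524324, plus strand) because it is the defining sequence of this arm.
Xbp1: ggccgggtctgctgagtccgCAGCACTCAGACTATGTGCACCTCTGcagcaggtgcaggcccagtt
Of the 4 Xbp1 transcripts listed, 3 contain this intron, 0 have its flanks joined, and the fourth, a retained-intron transcript, lacks the region. The abundance of spliced Xbp1 was therefore not analysed here.

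Dnajb9, an ER co-chaperone of Hspa5 known as a target of spliced Xbp1 and a repressor of IRE1, was the member with the smallest p. Its abundances were 17.2, 20.9 and 30.1 (lowest, median and highest) in Il10-/- Tnfr1-/- colons, and 15.6, 22.3, 9.21, 14.4 and 8.29 in Il10-/- colons. Of the Il10-/- libraries, 4 were below all 6 Il10-/- Tnfr1-/- libraries, and replicate 2 was within their range. The mean was 22.8 ± 5.75 in Il10-/- Tnfr1-/- and 13.95 ± 5.64 in Il10-/- colons (SD, n = 6 and 5), with a log2 fold change of 0.74 ± 0.26 (limma unadjusted p = 0.0131, adjusted p = 0.536). Among names starting with 1 the log2 fold change was 0.75, and without Il10-/- replicates 3 and 6 it was 0.37 (unadjusted p = 0.135). The IRE1 arm as a whole had 3 of 4 positive log2 fold changes and a median of 0.22.

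**Figure D1:**
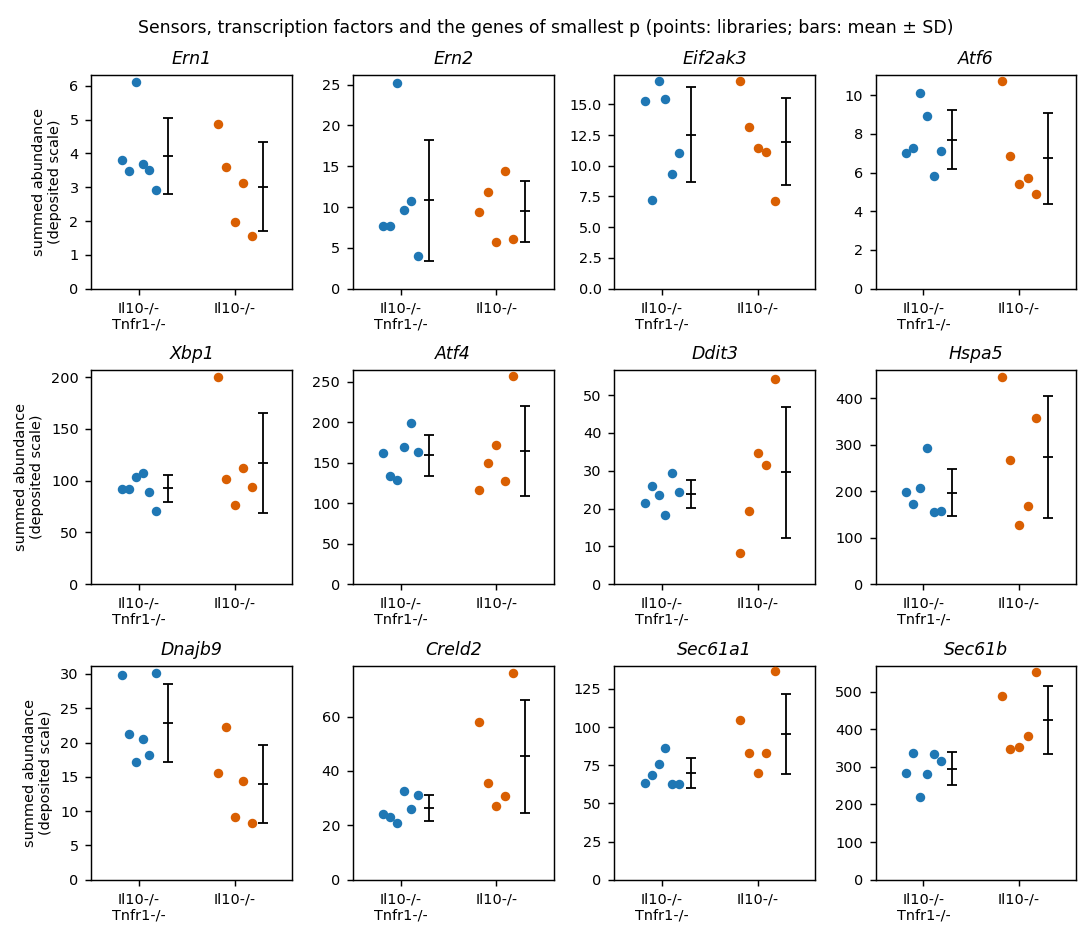
Summed abundance (deposited scale, axes from 0) of the 4 sensors, the transcription factors Xbp1, Atf4 and Ddit3, the chaperone Hspa5 and the 4 genes at an unadjusted p under 0.05, with 1 point per library, Il10-/- Tnfr1-/- left of Il10-/-, and bars for mean ± SD (n = 6 and 5). The genotypes overlap in all panels except Sec61b, where the highest Il10-/- Tnfr1-/- value is 337 and the lowest Il10-/- value 347.

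In the PERK arm the sensor and its main effector had near-equal means in both genotypes. Eif2ak3, the PERK kinase, had abundances of 7.21, 13.2 and 16.9 (lowest, median and highest) in Il10-/- Tnfr1-/- colons, and of 16.9, 13.1, 11.4, 11.1 and 7.16 in Il10-/- colons. Both genotypes covered nearly the same range. This gave a log2 fold change of 0.06 ± 0.26 (limma adjusted p = 0.925; 95% interval -0.50 to 0.62). Atf4, the transcription factor whose translation PERK favours, had abundances of 128, 162 and 198 in Il10-/- Tnfr1-/- colons, and of 117, 149.5, 171, 128 and 257 in Il10-/- colons. Il10-/- replicate 6 was the highest and replicate 1 the lowest of all 11 libraries. Atf4 had a log2 fold change of -0.01 ± 0.21 (limma adjusted p = 0.99), an mRNA measurement that does not read the translational step.

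Downstream of Atf4, the spread among Il10-/- colons was wide. Ddit3, which encodes the pro-apoptotic factor CHOP, had abundances of 18.3, 24.05 and 29.3 (lowest, median and highest) in Il10-/- Tnfr1-/- colons, and of 8.22, 19.5, 34.7, 31.5 and 54.3 in Il10-/- colons. The Il10-/- values lay on both sides of the whole Il10-/- Tnfr1-/- range. Ddit3 had a log2 fold change of -0.08 ± 0.37 (limma adjusted p = 0.928). Ddit3 overlaps Mars on the opposite strand, a gene with a mean abundance of 40.1, and how the quantification treated strand is not stated in the labels or headers, so reads of the overlap cannot be assigned with certainty.

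The phosphatase subunits that reverse PERK signalling had log2 fold changes of opposite sign, and neither passed the test. Ppp1r15a, the stress-induced subunit GADD34, had abundances of 14.9, 18.2 and 22.6 in Il10-/- Tnfr1-/- colons, and of 14.5, 15.0, 44.7, 25.3 and 52.4 in Il10-/- colons. Il10-/- replicates 3, 5 and 6 were above all 6 Il10-/- Tnfr1-/- libraries, and replicates 1 and 2 were at their low end. With these values the log2 fold change was -0.52 ± 0.32 (limma unadjusted p = 0.13, adjusted p = 0.537). Ppp1r15b, the constitutive subunit, had abundances of 33.1, 38.6 and 73.6 in Il10-/- Tnfr1-/- colons, and of 45.6, 36.9, 27.9, 29.9 and 37.2 in Il10-/- colons. The value of 73.6 belonged to Il10-/- Tnfr1-/- replicate 6, and the rest overlapped. For Ppp1r15b the log2 fold change was 0.26 ± 0.21 (limma unadjusted p = 0.251, adjusted p = 0.603). Its coding transcript, 31.0% of the total in Il10-/- Tnfr1-/- and 24.3% in Il10-/- colons, averaged 13.5 ± 5.11 in Il10-/- Tnfr1-/- and 8.62 ± 8.03 in Il10-/- colons, with a log2 fold change of 0.97 (limma unadjusted p = 0.073, adjusted p = 0.546).

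The log2 ratio of Ppp1r15a to Ppp1r15b was -1.17 ± 0.29 in Il10-/- Tnfr1-/- and -0.39 ± 1.03 in Il10-/- colons (SD, n = 6 and 5). The difference of -0.78 did not pass (exact two-sided permutation p = 0.119, 0.476 adjusted over 4 ratios). It was -1.09 without Il10-/- replicate 1 (exact unadjusted p = 0.0238) and -1.001 without Il10-/- replicate 2 (exact unadjusted p = 0.0476). Without Il10-/- replicate 3 it was -0.51 (exact unadjusted p = 0.267), and without Il10-/- replicate 6 it was -0.56 (exact unadjusted p = 0.238). Among names starting with 1 it was -0.30. The log2 ratio of Ddit3 to Atf4 averaged -2.71 in Il10-/- Tnfr1-/- and -2.64 in Il10-/- colons, a difference of -0.07 (exact permutation p = 0.825). Trib3, a pseudokinase induced by CHOP and Atf4, was at 0.353 to 1.04 in Il10-/- Tnfr1-/- and 0.172 to 1.18 in Il10-/- colons. Chac1, a glutathione-degrading enzyme of the same branch, was at 0.462 to 1.14 in Il10-/- Tnfr1-/- and 0.599 to 1.36 in Il10-/- colons. Trib3 and Chac1 were thus near the bottom of the 38 genes in level, and neither was tested. The PERK arm had 2 of 5 positive log2 fold changes and a median of -0.01.

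The genes of the ATF6 arm and chaperones moved only partly together from library to library (median Pearson's r of 0.63 over pairs). In Il10-/- replicate 6, Hspa5, Hsp90b1, Sdf2l1, Manf, Creld2 and Dnajb11 were above their mean. By gene total, Atf6, Calr, Canx, Hyou1 and Dnajc3 were below theirs in that library. For Calr this did not hold for the coding transcript, at 408 there, above the highest Il10-/- Tnfr1-/- value of 323. Coding transcripts of Canx summed to 67.4 there, below the lowest Il10-/- Tnfr1-/- sum of 79.5. Atf6 itself, the sensor, was low, with abundances of 5.83, 7.19 and 10.1 (lowest, median and highest) in Il10-/- Tnfr1-/- colons and of 10.8, 6.87, 5.43, 5.73 and 4.88 in Il10-/- colons. Its highest value was in Il10-/- replicate 1, and 3 other Il10-/- values were below the Il10-/- Tnfr1-/- range. The log2 fold change was 0.22 ± 0.21 (limma adjusted p = 0.648). Hspa5, the Hsp70 chaperone BiP that also holds the sensors inactive, had abundances of 155, 185 and 292 in Il10-/- Tnfr1-/- colons, and of 445, 266, 128, 167 and 357 in Il10-/- colons. Il10-/- replicates 1 and 6 were above every Il10-/- Tnfr1-/- library and replicate 3 below every one. Hspa5 had a log2 fold change of -0.36 ± 0.31 (limma unadjusted p = 0.274, adjusted p = 0.613).

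Creld2, an ER-stress-inducible secretory factor, was the member of this arm with the smallest p. It had abundances of 20.7, 25.1 and 32.7 (lowest, median and highest) in Il10-/- Tnfr1-/- colons, and of 57.9, 35.6, 27.3, 30.8 and 76.0 in Il10-/- colons. Il10-/- replicates 1, 2 and 6 were above the Il10-/- Tnfr1-/- range, and replicates 3 and 5 were within it. The mean was 26.3 ± 4.67 in Il10-/- Tnfr1-/- and 45.5 ± 20.8 in Il10-/- colons (SD, n = 6 and 5), with a log2 fold change of -0.68 ± 0.26 (limma unadjusted p = 0.0203, adjusted p = 0.536). Among names starting with 1 it was also -0.68. Without Il10-/- replicate 6 it was -0.47 (unadjusted p = 0.0512), and without Il10-/- replicate 1 it was -0.57 (unadjusted p = 0.0528).

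Manf, a secreted ER-resident trophic factor released under stress, had abundances of 82.6, 95.3 and 125 in Il10-/- Tnfr1-/- colons, and of 195, 120.5, 90.9, 105 and 235 in Il10-/- colons. Replicates 1 and 6 of Il10-/- were again above all Il10-/- Tnfr1-/- libraries. The log2 fold change was -0.49 ± 0.25 (limma unadjusted p = 0.0688, adjusted p = 0.536). Sdf2l1, an ER-stress-inducible partner of the Hspa5 cycle, averaged 24.7 ± 6.03 in Il10-/- Tnfr1-/- and 36.6 ± 14.9 in Il10-/- colons, with a log2 fold change of -0.49 (limma unadjusted p = 0.0895). Hsp90b1, the ER Hsp90 chaperone, averaged 239 ± 49.0 in Il10-/- Tnfr1-/- and 333 ± 183 in Il10-/- colons. The lectin chaperones Calr and Canx, which hold newly glycosylated proteins, had log2 fold changes of -0.10 and 0.40, and the co-chaperones Hyou1, Dnajb11 and Dnajc3 had -0.03, -0.52 and 0.09, with limma unadjusted p from 0.132 to 0.934 over these 5 genes and Hsp90b1. The group of 11 had 3 positive log2 fold changes and a median of -0.35.

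Promoters of unfolded protein response genes carry a known shared element, and its sequence is given for those of the 38 genes that held it. The element and the 38 genes were both taken from what is known of this response. A high share among these genes was therefore set by their choice and is not a result of these data. The ER stress element (ERSE) was searched as a CCAAT box, 9 bases of any kind and a CCACG box on both strands of windows from 250 bases before to 50 bases after each start site (RefSeq, GRCm38.p6). Of the 38 genes, 31 had such a window (Ern2, Ppp1r15b, Atf6, Hyou1, Manf, Derl1 and Sec61a1 had none), and 9 of these (29.0%) held the element, against 37 of 27025 genes (0.137%). Each match is shown 5′ to 3′ on the strand that reads CCAAT first, with its CCAAT and CCACG boxes in capitals and 10 bases on each side.
Hspa5, chr2:34772015-34772053, plus strand: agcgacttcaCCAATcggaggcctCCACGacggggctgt
Hsp90b1, distal, chr10:86705628-86705666, minus strand: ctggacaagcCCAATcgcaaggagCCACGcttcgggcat
Hsp90b1, proximal, chr10:86705523-86705561, plus strand: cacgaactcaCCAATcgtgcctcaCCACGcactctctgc
Calr, chr8:84847065-84847103, plus strand: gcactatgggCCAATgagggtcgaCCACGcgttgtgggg
Canx, chr11:50325790-50325828, minus strand: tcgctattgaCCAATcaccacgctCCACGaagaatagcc
Creld2, chr15:88819510-88819548, minus strand: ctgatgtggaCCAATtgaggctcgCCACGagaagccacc
Dnajc3, chr14:118937817-118937855, plus strand: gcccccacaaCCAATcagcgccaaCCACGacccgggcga
Pdia6, chr12:17266481-17266519, plus strand: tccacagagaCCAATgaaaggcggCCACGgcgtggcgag
Syvn1, chr19:6046522-6046560, plus strand: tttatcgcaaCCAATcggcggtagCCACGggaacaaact
Derl3, chr10:75893232-75893270, minus strand: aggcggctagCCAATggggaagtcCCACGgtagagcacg
Every match lay upstream of the start site, with its nearest base between 26 (Syvn1) and 194 (Hsp90b1, distal) bases away.

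The Hspa5 promoter shows how the boxes are arranged. Its 250 bases upstream of the RefSeq start site (chr2:34771840-34772089, plus strand) are given with every CCAAT box, its reverse complement ATTGG and the CCACG box in capitals.
Hspa5: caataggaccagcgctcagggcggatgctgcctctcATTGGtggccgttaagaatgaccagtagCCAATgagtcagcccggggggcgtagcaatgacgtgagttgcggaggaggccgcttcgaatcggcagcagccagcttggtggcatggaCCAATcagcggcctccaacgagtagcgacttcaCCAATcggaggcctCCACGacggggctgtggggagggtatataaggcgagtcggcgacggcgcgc
The stretch holds 3 CCAAT boxes on the plus strand, 1 on the minus strand, and 1 CCACG box, which completes the element nearest the start site. The GENCODE annotation starts the Hspa5 gene at base 34771970, inside this stretch.

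Of the other elements searched on both strands, ERSE-II (ATTGG, 1 base of any kind, CCACG) was in Dnajb11 and Herpud1, or 6.45% of the 31 windows against 0.0444% of all. The amino acid response element searched as TGATGNAAN was in Trib3, Chac1 and Herpud1, or 9.68% against 4.50%, and TGACGTGG was in 0 of 31 against 0.714%. The CCACG box of ERSE was in 24 of 31 windows (77.4%) against 35.5% of all, a count that includes the ERSE matches. The 8 tested genes with an ERSE match had a median log2 fold change of -0.23, with 2 positive. The 20 tested genes with a window and no match had a median of -0.18, with 6 positive. A match is a match of letters and was not tested as a binding site.

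**Figure D2:**
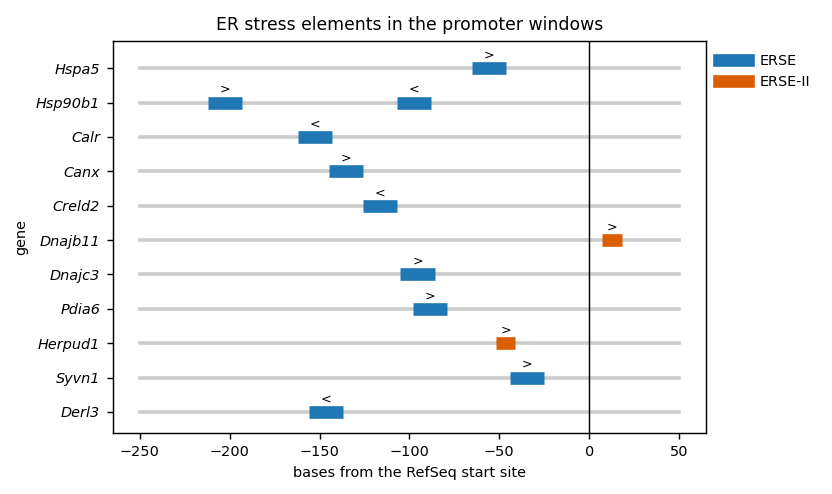
Position of each ERSE (blue) and ERSE-II (orange) match in the promoter windows (grey) of 11 genes, in bases from the RefSeq start site at 0. Arrows give the direction of the match relative to the gene. All ERSE matches lie 26 to 194 bases upstream, and the Dnajb11 ERSE-II match lies past the start site.

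The disulfide isomerases included the most abundant members. Agr2, the isomerase of goblet and other mucous cells that helps to fold mucin 2, had abundances of 753, 1351 and 1801 (lowest, median and highest) in Il10-/- Tnfr1-/- colons, and of 1353, 1757, 661, 1390 and 1072 in Il10-/- colons. The genotypes overlapped throughout. Its log2 fold change was 0.11 ± 0.28 (limma adjusted p = 0.867; 95% interval -0.50 to 0.73). Pdia6, which also acts on the IRE1 sensor, had abundances of 77.2, 95.6 and 131 in Il10-/- Tnfr1-/- colons, and of 169, 139, 85.9, 94.7 and 173 in Il10-/- colons. Il10-/- replicates 1, 2 and 6 were above the Il10-/- Tnfr1-/- range. Pdia6 had a log2 fold change of -0.40 ± 0.22 (limma unadjusted p = 0.0904, adjusted p = 0.536). Pdia3, Pdia4 and Pdia5, further thiol isomerases, had log2 fold changes of -0.15, 0.09 and 0.26 (limma adjusted p from 0.635 to 0.892), and 3 of the 6 genes were positive with a median of -0.03.

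P4hb, the founding protein disulfide isomerase, had gene totals of 370.4, 689 and 1111 in Il10-/- Tnfr1-/- colons, and of 718, 723, 1050, 853 and 2000.2 in Il10-/- colons. Il10-/- replicate 6 stood apart at the top. The log2 fold change of the total was -0.54 ± 0.33 (limma unadjusted p = 0.129, adjusted p = 0.537). The excess lay in a transcript annotated as non-coding: ENSMUST00000166620.1, of the class processed transcript, had 40.7, 308 and 566 (lowest, median and highest) in Il10-/- Tnfr1-/- colons, and 121, 323, 818, 468 and 1584 in Il10-/- colons. The coding transcripts of P4hb together averaged 406 ± 95.1 in Il10-/- Tnfr1-/- and 406 ± 130 in Il10-/- colons (SD, n = 6 and 5), with a log2 fold change of 0.03 (limma unadjusted p = 0.888).

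**Figure D3:**
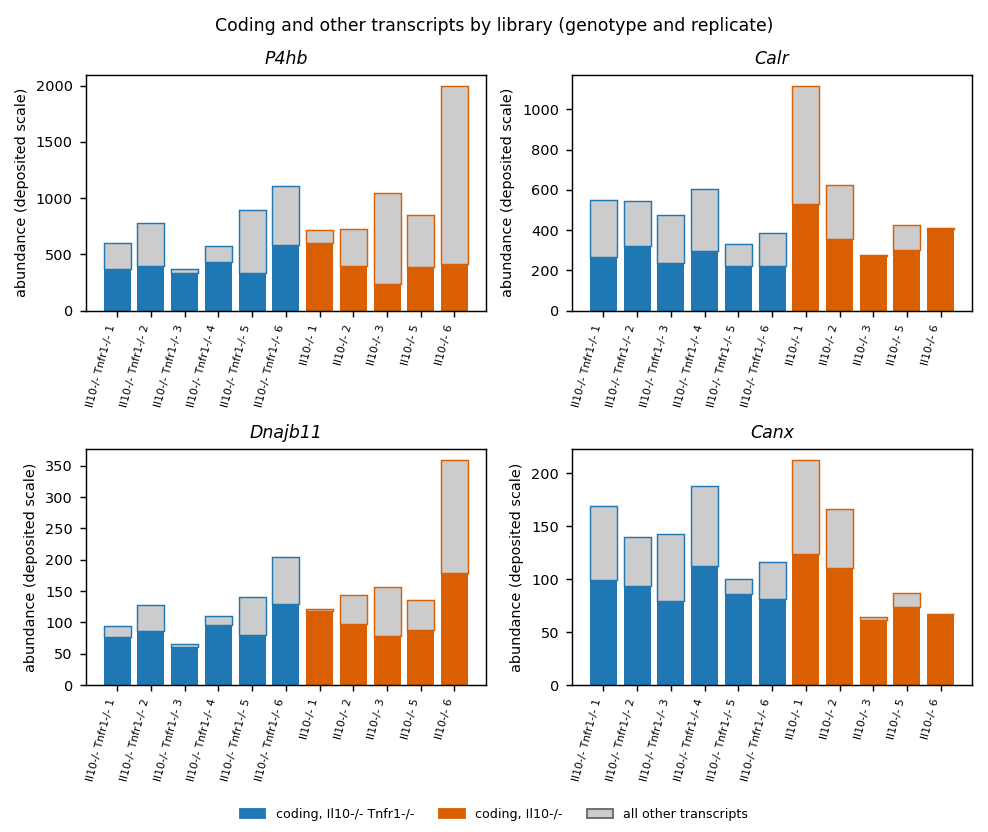
Abundance of the coding transcripts (coloured) and all other transcripts (grey) of P4hb, Calr, Dnajb11 and Canx, stacked by library, Il10-/- Tnfr1-/- (blue) left of Il10-/- (orange). The grey part of P4hb is tallest in Il10-/- replicate 6, where the grey parts of Calr and Canx nearly vanish.

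Calr showed the opposite arrangement. Its retained-intron transcript ENSMUST00000154774.1 had 107, 230 and 307 (lowest, median and highest) in Il10-/- Tnfr1-/- colons, and 582, 262, 1.93, 122 and 0.531 in Il10-/- colons. Il10-/- replicates 3 and 6 nearly lacked it. The coding transcript ENSMUST00000003912.6 averaged 260 ± 42.3 in Il10-/- Tnfr1-/- and 373 ± 102 in Il10-/- colons (SD, n = 6 and 5), with a log2 fold change of -0.49 ± 0.20 (limma unadjusted p = 0.0298, adjusted p = 0.646 over 27895 transcripts, of which 6.27% had an unadjusted p under 0.05). Canx had a processed transcript with the pattern of Calr: ENSMUST00000146979.1 was listed at 13.95 to 74.2 in Il10-/- Tnfr1-/- colons, and at 87.7, 55.4, 2.47, 13.4 and 0 in Il10-/- colons.

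The share of a gene's abundance on coding transcripts varied widely among the 38 genes. In 26 genes it was at least 90% in both genotypes, and in 6 genes (Ern2, Ppp1r15b, P4hb, Edem1, Sel1l and Derl3) it was under 50% in at least 1 genotype. Ern2 is the clearest: 14.9% of its abundance in Il10-/- Tnfr1-/- and 17.7% in Il10-/- colons was on the coding transcript, and the rest was on a transcript of the class nonsense-mediated decay. Among all 76 member transcripts tested, 0 had an adjusted p under 0.05 and 8 had an unadjusted p under 0.05 (limma). Of all 27895 transcripts tested, 6.27% had an unadjusted p under 0.05. When coding transcripts alone were summed, Dnajb9, Creld2, Sec61a1 and Sec61b kept their values to within 0.01 on the log2 scale, and Calr joined them at an unadjusted p under 0.05 (log2 fold change -0.49, limma unadjusted p = 0.0272). In that sum 0 of 35 passed the adjusted threshold. Of all genes, 8.03% of 12110 had an unadjusted p under 0.05.

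ER-associated degradation, which returns misfolded proteins to the cytosol for the proteasome, had 0 of 7 positive log2 fold changes and a median of -0.20. With an equal total per library, 3 of 7 were positive and the median was -0.057. With coding transcripts alone, 1 of 7 was positive and the median was -0.064. Derl2, a channel component of the derlin family, had abundances of 22.1, 27.7 and 37.1 (lowest, median and highest) in Il10-/- Tnfr1-/- colons, and of 36.2, 28.7, 31.1, 33.0 and 65.0 in Il10-/- colons. Apart from Il10-/- replicate 6, all Il10-/- values were within the Il10-/- Tnfr1-/- range. Derl2 had a log2 fold change of -0.42 ± 0.22 (limma unadjusted p = 0.0812, adjusted p = 0.536). Sel1l, the scaffold of the Hrd1 ligase complex, had abundances of 20.3, 33.5 and 44.6 in Il10-/- Tnfr1-/- colons, and of 31.9, 31.7, 38.7, 38.5 and 59.1 in Il10-/- colons. By gene total, Il10-/- replicate 6 was again the highest library. The coding transcripts of Sel1l summed to 9.74 there, below the lowest Il10-/- Tnfr1-/- sum of 11.7. The log2 fold change of the Sel1l total was -0.28 ± 0.22 (limma unadjusted p = 0.219, adjusted p = 0.586), and with coding transcripts alone it was 0.22.

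The remaining genes of this step differed little. Syvn1, the Hrd1 ubiquitin ligase, averaged 17.9 ± 2.76 in Il10-/- Tnfr1-/- and 19.2 ± 0.95 in Il10-/- colons, and Derl1, the widely expressed derlin, averaged 29.5 ± 2.66 in Il10-/- Tnfr1-/- and 31.0 ± 5.49 in Il10-/- colons (SD, n = 6 and 5). Edem1 and Edem2, lectins that select glycoproteins for degradation, had log2 fold changes of -0.25 and -0.03. Herpud1, an ER membrane protein of the Hrd1 complex, had -0.20. Of these 5 genes the limma unadjusted p ranged from 0.3 to 0.853. Derl3, the derlin most induced by ER stress, was listed at 0.116 to 0.546 in Il10-/- Tnfr1-/- and 0.258 to 0.69 in Il10-/- colons, the lowest level of the 38 genes. Its log2 ratio to Derl1 averaged -5.10 in Il10-/- Tnfr1-/- and -5.01 in Il10-/- colons (difference -0.09, exact permutation p = 0.686).

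The translocon genes were both lower in Il10-/- Tnfr1-/- colons at an unadjusted p under 0.05 and neither passed adjustment. Sec61b, the beta subunit of the channel through which secretory proteins enter the ER, is on chr4:47474658-47483242 (plus strand). Its abundances were 219.7, 299 and 337 (lowest, median and highest) in Il10-/- Tnfr1-/- colons, and 488, 347, 352, 383 and 552 in Il10-/- colons. All 5 Il10-/- libraries were above all 6 Il10-/- Tnfr1-/- libraries, which held for 0.265% of all genes tested in that direction and, among the 35 members, for this 1 gene. The gap is narrow, between 337 and 347. The mean was 295 ± 44.1 in Il10-/- Tnfr1-/- and 424 ± 91.3 in Il10-/- colons (SD, n = 6 and 5), with a log2 fold change of -0.51 ± 0.18 (limma unadjusted p = 0.0155, adjusted p = 0.536).

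Sec61a1, the pore-forming subunit, is on chr6:88503579-88518905 (minus strand). It had abundances of 62.4, 65.9 and 86.5 in Il10-/- Tnfr1-/- colons, and of 105, 83.2, 70.0, 83.1 and 136 in Il10-/- colons. Il10-/- replicates 1 and 6 were above the Il10-/- Tnfr1-/- range and the other 3 were inside it. Its log2 fold change was -0.42 ± 0.18 (limma unadjusted p = 0.0385, adjusted p = 0.536). Among names starting with 1, Sec61b had a log2 fold change of -0.34 and Sec61a1 of -0.36. Without Il10-/- replicate 6, Sec61a1 had -0.28 (unadjusted p = 0.094) and Sec61b -0.41 (unadjusted p = 0.0351). With GC and length trends removed, Sec61b had -0.21 (limma unadjusted p = 0.239), so its unadjusted call was lost.

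**Figure D4:**
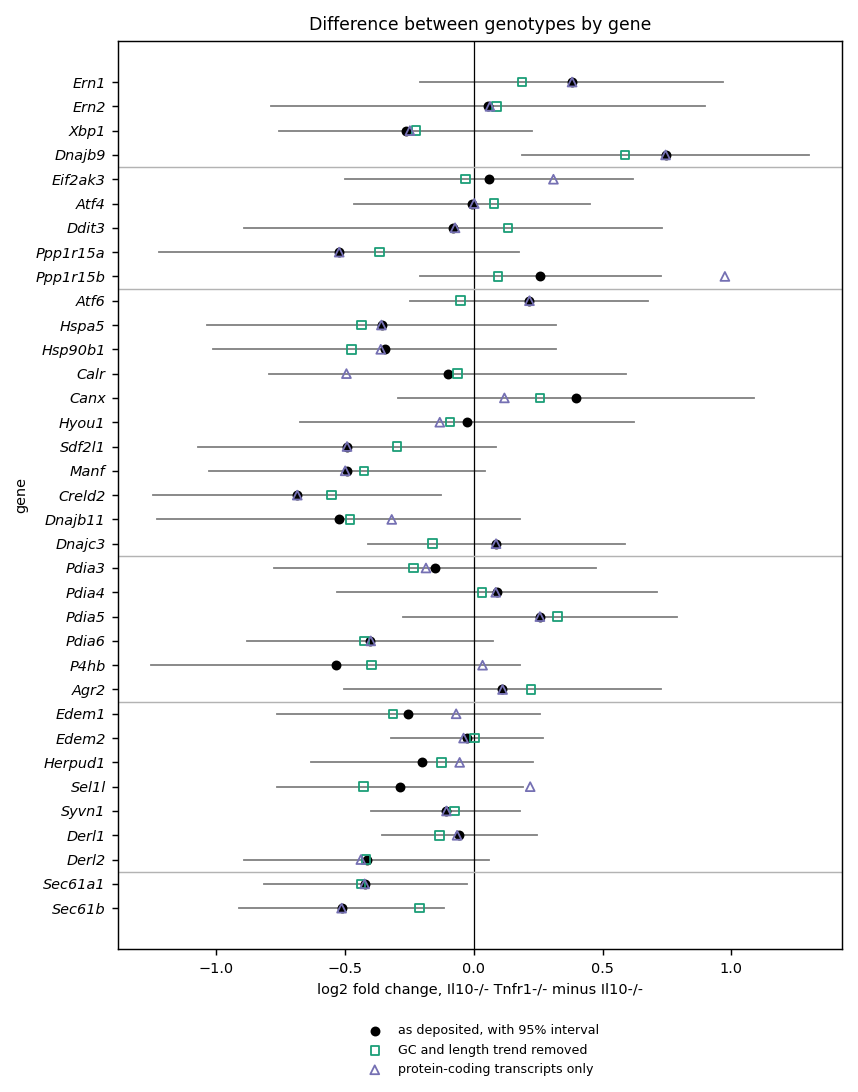
Log2 fold change (Il10-/- Tnfr1-/- minus Il10-/-) of the 35 tested genes by role, with 95% intervals for the values as deposited (black), after removal of each library's GC and length trend (green squares) and from coding transcripts alone (purple triangles). Of the 35 intervals, 31 include 0, and the P4hb and Sel1l triangles lie on the other side of 0 from their black points.

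The Il10-/- colons spread more widely than the Il10-/- Tnfr1-/- colons. The coefficient of variation (SD over mean) was larger in Il10-/- for 29 of 35 members (82.9%), against 65.7% of all genes tested. Its median over the members was 20.3% in Il10-/- Tnfr1-/- and 39.3% in Il10-/- colons, while over all genes it was 26.5% in Il10-/- Tnfr1-/- and 33.7% in Il10-/- colons. The difference in spread was not tested. Il10-/- replicate 1 was the highest of 11 libraries for 12 members, among them Xbp1, Atf6, Hspa5, Hsp90b1, Calr and Pdia4, a position it held for 17.2% of all genes. Il10-/- replicate 6 was the highest for 13 members, among them Atf4, Ddit3, Ppp1r15a, Creld2 and Sec61b, against 19.7% of all genes. Il10-/- replicate 3 was the lowest for 12 members, against 9.48% of all genes. Il10-/- Tnfr1-/- replicate 3 was the lowest for 9 members, against 8.92% of all genes, and the highest for 5, against 16.1%. Il10-/- replicates 2 and 5 were neither the highest nor the lowest for any member. Of the 17 chaperone and disulfide isomerase genes, 15 were above their mean over the 11 libraries in Il10-/- replicate 1, as in Il10-/- replicate 2 and Il10-/- Tnfr1-/- replicate 4, and 9 in Il10-/- replicate 6. Il10-/- replicates 1 and 6 were high for Hspa5, Hsp90b1, Manf and Creld2. Replicate 6 was below the mean for the gene totals of Calr, Canx and Pdia4. The coding transcript of Calr was 408 in that library, above the highest Il10-/- Tnfr1-/- value of 323. Ddit3 was 8.22 in replicate 1 and 54.3 in replicate 6.

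Pairs of members chosen for their known relation were compared across the 11 libraries on the log2 scale. Hspa5 and Hsp90b1 had Pearson's r = 0.94 and Spearman's rho = 0.95 (permutation p = 2e-05 and 3e-05, r adjusted over 6 pairs p = 0.00012), and r = 0.89 without the libraries farthest from the median, Il10-/- replicates 1 and 6. Hspa5 and Calr had r = 0.77 and rho = 0.77 (permutation p = 0.00395 and 0.00729, r adjusted p = 0.0079), and r = 0.88 without those libraries. Ddit3 and Ppp1r15a had r = 0.79 and rho = 0.89 (permutation p = 0.00125 and 0.00054, r adjusted p = 0.00375), and r = 0.82 without them. Within the 6 Il10-/- Tnfr1-/- libraries alone, r was 0.80 for Hspa5 and Hsp90b1, 0.76 for Hspa5 and Calr, and 0.53 for Ddit3 and Ppp1r15a. The libraries share 1 scaling, and genes of similar GC content or length share the library trends on those properties.

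The other pairs had a lower Pearson's r over the 11 libraries. Ern2 and Agr2, both epithelial, had r = 0.71 and rho = 0.83 (permutation p = 0.015 and 0.00281, r adjusted p = 0.0225), and r = 0.77 without Il10-/- Tnfr1-/- replicates 3 and 6. Atf4 and Ddit3 had r = 0.68 and rho = 0.49 (permutation p = 0.0279 and 0.129), and r = 0.02 without Il10-/- replicates 1 and 6, so that the relation rested on those libraries. Xbp1 and Dnajb9 had r = -0.10 and rho = -0.34 (permutation p = 0.755 and 0.314). Within the 6 Il10-/- Tnfr1-/- libraries alone, r was 0.69 for Ern2 and Agr2, 0.11 for Atf4 and Ddit3, and -0.64 for Xbp1 and Dnajb9. Over all pairs of the 35 members the median r was 0.18; it was 0.63 among the 11 genes of the ATF6 arm and chaperones and -0.09 among the 5 tested genes of the PERK arm.

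The libraries differed in their trends on GC content and transcript length. The correlation of a library's deviation with GC content over 13380 genes was -0.14 to -0.04 in the 6 Il10-/- Tnfr1-/- libraries, and -0.20, -0.22, 0.36, 0.10 and 0.26 in the Il10-/- libraries. With log2 length it was 0.35 in Il10-/- Tnfr1-/- replicate 3 and -0.37 in Il10-/- replicate 6. Across the 35 members, the log2 fold change had r = -0.38 with GC content and 0.52 with log2 length, against -0.22 and 0.29 over all genes tested. Sec61b is the shortest of these genes, and Dnajb9 has the lowest GC content. After each library's linear trend on GC content and length was removed, Dnajb9 had a log2 fold change of 0.59 (limma unadjusted p = 0.0128), Sec61a1 -0.44 (unadjusted p = 0.0323), and Creld2 -0.55 (unadjusted p = 0.0564), each adjusted p being 0.621 or more.

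Other genes of the secretory pathway were read from further lists, and 0 genes of any list passed the adjusted threshold. At an unadjusted p under 0.05, other ER-associated degradation genes had 4 of 19 higher and 0 lower in Il10-/- Tnfr1-/- colons, with 13 positive and a median log2 fold change of 0.13. Over all genes tested, 4.74% were higher and 3.6% lower at that level and 55.5% were positive. They include Edem3, a mannosidase of that pathway, at 12.3 ± 1.31 in Il10-/- Tnfr1-/- and 7.74 ± 3.89 in Il10-/- colons (log2 fold change 0.77, limma unadjusted p = 0.0171), and the ligase gene March6 (0.37, limma unadjusted p = 0.0399). N-glycosylation genes had 0 of 19 higher and 3 lower, with 14 negative and a median of -0.22, among them Dpagt1, which starts the glycan chain (-0.52, limma unadjusted p = 0.0233), and Krtcap2 (-0.43, limma unadjusted p = 0.0302). Signal sequence translocation genes had 0 of 21 higher and 2 lower: Ssr2, a subunit beside the translocon (-0.36, limma unadjusted p = 0.0325), and Sec61g, the gamma subunit of the channel (-0.50, unadjusted p = 0.0412). Of other ER folding enzymes, 1 of 19 was higher (Tmx3, 0.53, limma unadjusted p = 0.036) and 1 lower (Fkbp11, -0.76, unadjusted p = 0.0114).

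The lists closest to the PERK and IRE1 arms were divided, and their counts are set against 4.74% of all genes higher and 3.6% lower at an unadjusted p under 0.05, and 55.5% positive. ATF4 target genes had 10 positive and 10 negative log2 fold changes and a median of 0.02. Cth, which makes cysteine, was the 1 of 20 at an unadjusted p under 0.05 (log2 fold change 0.82, limma unadjusted p = 0.0233), and Asns, the asparagine synthetase, was at -0.42 (unadjusted p = 0.091). The eIF2alpha kinases and eIF2 machinery had 5 of 11 positive, and their smallest p were of Eif2b2 (-0.53, limma unadjusted p = 0.0522) and Eif2b3 (-0.47, unadjusted p = 0.0686). IRE1 decay substrates and the RNA ligase had 5 of 8 positive, led by Sparc (0.85, limma unadjusted p = 0.148) and Col6a1 (0.71, unadjusted p = 0.203), and the ER-anchored CREB3 factors and site proteases 7 of 9, led by Creb3l2 (0.62, unadjusted p = 0.149) and Mbtps2 (0.32, unadjusted p = 0.22). COPII and COPI coat genes had 15 of 25 positive and 1 at an unadjusted p under 0.05, Sec23a (0.54, limma unadjusted p = 0.0231), with Sar1b next (0.54, unadjusted p = 0.057). Cytosolic heat shock genes had 9 of 13 positive and 3 higher at that level, including the inducible Hsp70 genes Hspa1b (0.68, limma unadjusted p = 0.0119) and Hspa1a (0.78, unadjusted p = 0.0322), near-identical copies among which reads may be split.

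Markers of other cell types are given beside these genes, and 0 of them passed the adjusted threshold. In whole colon fewer cells of a type and less RNA per cell cannot be told apart. Of 13 goblet cell markers tested, 4 had positive log2 fold changes (median -0.12; Atoh1 0.72 and Klk1 0.46 of smallest p), with summed levels of 5017 to 19179 in Il10-/- Tnfr1-/- and 7183 to 21524 in Il10-/- colons. Of 11 epithelial markers, 2 were positive (median -0.22; Cldn7 -0.47 and Cdx1 -0.28 of smallest p; sums 8020 to 25461 in Il10-/- Tnfr1-/- and 10712 to 23315 in Il10-/- colons). Plasma cell markers summed to 179 to 440.3 in Il10-/- Tnfr1-/- and 142 to 233 in Il10-/- colons, with 6 of 12 tested, 3 positive, and 4 at 0 in at least 1 library. Their genes of smallest p were Igha, with a log2 fold change of -1.28, and Sdc1, with 0.22. Sdc1 made up much of these sums, at 89.6 ± 18.4 in Il10-/- Tnfr1-/- and 76.2 ± 9.20 in Il10-/- colons (SD). Igha averaged 0.82 in Il10-/- Tnfr1-/- and 2.89 in Il10-/- colons. The sums were not tested as a measure of plasma cells. Colonocyte markers had 3 of 9 positive (Saa1 -3.003 and Car4 -2.21 of smallest p), and sums of 2083 to 35846 in Il10-/- Tnfr1-/- and 3628 to 15985 in Il10-/- colons. Of these markers 2 were lower at an unadjusted p under 0.05 (limma), against 3.6% of all genes tested. The sums include the serum amyloid A gene Saa1, at 738 ± 599 in Il10-/- Tnfr1-/- and 5450 ± 4107 in Il10-/- colons (SD), so they do not read colonocytes alone. Epithelial and goblet genes were abundant in every library, which does not tell 1 part of the gut from another. Of the 12 pancreatic acinar markers, Prss1, Try4 and Amy2b were at 0 in every library and 10 were at 0 in at least 1. The list summed to 30.4 to 108 in Il10-/- Tnfr1-/- and 44.2 to 131 in Il10-/- colons. The 1 acinar marker tested, Cela1, averaged 60.2 ± 26.7 in Il10-/- Tnfr1-/- and 88.8 ± 33.0 in Il10-/- colons (SD, log2 fold change -0.57).

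Markers of muscle, stroma and immune cells are set against all genes tested, of which 4.74% were higher and 3.6% lower at an unadjusted p under 0.05 and 55.5% were positive. All 10 smooth muscle markers were positive, 9 at an unadjusted p under 0.05 (Actg2 2.57 and Mylk 1.66 of smallest p), with sums of 828 to 8010 in Il10-/- Tnfr1-/- and 184 to 3505 in Il10-/- colons. All 7 fibroblast markers tested were positive (2 at that level, Pdgfra 0.76 and Dcn 1.83; sums 199.7 to 1682 in Il10-/- Tnfr1-/- and 56.7 to 393 in Il10-/- colons), as were all 9 macrophage markers (1 at that level, C1qc 0.61, with C1qa 0.50 next). All 4 neutrophil markers tested were negative (3 at that level, S100a8 -3.85 and Ly6g -3.002 of smallest p; sums 6.81 to 99.9 in Il10-/- Tnfr1-/- and 35.5 to 539 in Il10-/- colons). Immediate early genes had 2 of 9 positive (Ier2 -0.26 and Junb -0.46 of smallest p), and of the Paneth cell and small intestine markers 3 of 9 were tested (Apoa4 1.46 and Fabp6 -0.75 of smallest p). The part of these markers in the values of the ER genes was not tested.

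In the authors' deposited table, 101 transcripts of the 38 genes carry a p-value. Of these, 9 have a p-value under 0.05 and 0 a q-value under 0.05, against 6.83% of all 43192 transcripts with a p-value under 0.05. In the authors' deposited table the smallest of the p-values belong to a retained-intron transcript of Hsp90b1 (p = 0.0106, q = 0.684) and to Creld2 (p = 0.0129, q = 0.684).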

How the data were processed

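Colon RNA was read as 75-base single-end stranded mRNA libraries, per the labels' protocols. The submitters' processing notes name CASAVA, kallisto, sleuth and mm10. Their settings and versions are not stated there. Per transcript, the authors deposited a scaled abundance signal that is divided by length and is not a count, so depth is unknown. The authors' table also gives p-values, q-values and fold values on log2 and natural log scales, as deposited. Of 12 samples, 11 had a column matching their title; 1 per-sample column matched none and was not used, and Il10-/- replicate 4 was not analysed here.

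After 866 repeated rows were dropped, 113193 transcripts were summed per gene identifier. Genes were tested if their value exceeded 1 in 5 or more libraries, the size of the smaller group, with limma 3.58.1 (R 4.3.3; trend and robust moderation) on log2(value + 0.5), two-sided, with Benjamini-Hochberg adjustment over 13561 genes and a threshold of 0.05. The fit was tested on simulated data. Ratios were compared by exact permutation over 462 assignments, and correlations with 100000 permutations. Transcript classes and coordinates came from GENCODE M21 (98.4% of transcripts matched) and promoters from RefSeq GRCm38.p6. The 38 genes, the role groups and the other lists were chosen with earlier results of these data known. The lowest, median and highest of the 6 Il10-/- Tnfr1-/- libraries and all 5 Il10-/- values are given for the sensors, Xbp1, Atf4, Ddit3, Hspa5, Agr2 and the 2 genes of smallest p in each role group; of each other pathway or cell list, the 2 tested genes of smallest p are named. Other values, such as the transcripts of Calr, Canx and P4hb, were chosen after they were seen. Alternatives were the pseudocount, the filter, the scaling, moderation, and leaving out libraries. Removal of GC and length trends, 9 libraries and coding transcripts alone were added after seeing the data.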

Additional observations from a re-analysis of the deposited data

Results flagged for a closer look

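In all, 84 groups of values were looked at (38 genes and 4 ratios in each genotype). Of these, 8 held a library farther from the rest than Dixon's 95% critical value allows, each time as the highest value. Chance flags about 1 in 20 groups if values are normally distributed and groups are independent. The genes were taken on the deposited scale without logs and the groups share libraries, so that rate may not hold here. In Il10-/- Tnfr1-/- colons, replicate 3 was far above the others for Ern1 (6.11), Ern2 (25.2) and Herpud1 (122.5), and replicate 6 was far above the others for Ppp1r15b (73.6). In Il10-/- colons, replicate 6 was far above the others for Dnajb11 (358), P4hb (2000.2), Sel1l (59.1) and Derl2 (65.0). In P4hb the coding transcripts of Il10-/- replicate 6 summed to 416, within the range of 232 to 597 of the Il10-/- libraries. In Sel1l those of replicate 6 summed to 9.74, the lowest of the Il10-/- libraries, which reached 21.2. In Dnajb11 and Derl2 they summed to 179 and 64.6, the highest of the Il10-/- libraries. Il10-/- replicate 6 also had the strongest negative correlation of its deviations with transcript length (r = -0.37), and Il10-/- Tnfr1-/- replicate 3 the strongest positive (r = 0.35). The part of that trend in these 8 values was not tested.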

How the results depend on the processing

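Of the 35 genes tested, 16 kept the sign of their log2 fold change in all 23 alternatives, and 67 of 805 values had the opposite sign. No gene of the 38 crossed the adjusted threshold in any alternative, and the medians of the 6 role groups moved by less than their SD over libraries, although 3 of them took both signs. The IRE1 median was -0.014 in names starting with 1 and -0.15 in 9 libraries, the PERK median ranged up to 0.18 (9 libraries), and the isomerase median was 0.11 with equal totals and 0.13 without Il10-/- replicate 1. The chaperone median was -0.078 without Il10-/- replicate 1. With an equal total per library, log2 fold changes of opposite sign were Atf4 0.14, Ddit3 0.062, Calr 0.042, Hyou1 0.11, Edem2 0.12, Syvn1 0.031 and Derl1 0.086. With median-ratio factors they were Ern2 -0.016 and Eif2ak3 -0.011, and with quantile normalization Eif2ak3 -0.0083 and Atf4 0.12. With GC and length trends removed they were Eif2ak3 -0.032, Atf4 0.079, Ddit3 0.13, Atf6 -0.051, Dnajc3 -0.16 and Edem2 0.0025. With coding transcripts alone they were Atf4 0.0020, P4hb 0.034 and Sel1l 0.22. In names starting with 1 they were Ern2 -0.15, Eif2ak3 -0.36, Atf4 0.026, Ddit3 0.40, Atf6 -0.046, Pdia4 -0.20, Edem2 0.26 and Sel1l 0.069. The log2 ratios there were 0.37 for Ddit3 to Atf4 and 0.075 for Derl3 to Derl1, and 3 libraries against 2 cannot give an exact p below 0.1. In 9 libraries, without Il10-/- replicates 3 and 6, they were Ern2 -0.32, Eif2ak3 -0.16, Atf4 0.27, Ddit3 0.44, Ppp1r15a 0.050, Canx -0.058, Dnajc3 -0.17, Pdia4 -0.28, Pdia5 -0.058 and Agr2 -0.22. Leaving out 1 library at a time gave log2 fold changes of both signs for Ern2 (-0.22 to 0.28), Eif2ak3 (-0.11 to 0.20), Atf4 (-0.11 to 0.17), Ddit3 (-0.47 to 0.20), Calr (-0.32 to 0.18), Hyou1 (-0.20 to 0.21), Dnajc3 (-0.066 to 0.28), Pdia3 (-0.38 to 0.094), Pdia4 (-0.089 to 0.35), Agr2 (-0.10 to 0.26), Edem2 (-0.084 to 0.037) and Derl1 (-0.11 to 0.041). The ratio of Ddit3 to Atf4 ranged from -0.35 to 0.085, Derl3 to Derl1 from -0.27 to 0.029, and Ppp1r15a to Ppp1r15b from -1.09 to -0.51. The cause of each was not tested.

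Over all genes, 1 gene (Tnfrsf1a) passed the adjusted threshold with quantile normalization, and leaving out 1 library gave 0 to 2 genes (Tnfrsf1a and Il18 without Il10-/- replicate 2) and 0 to 1 transcripts. Genes at an unadjusted p under 0.05 were 142 in names starting with 1 and 482 (without Il10-/- replicate 6) to 2458 (without Il10-/- replicate 1) when 1 library was left out, with 1727 without Il10-/- replicate 2. Scaling moved the share of these genes that were higher in Il10-/- Tnfr1-/- colons to 75.1% with equal totals, 40.3% with median-ratio factors and 41.3% with quantile normalization, against 56.9% as deposited. No paired analysis was possible because replicates are numbered in sample order and the labels pair no animals. The share of Xbp1 without the IRE1 intron was not computed, since no listed transcript has the intron's flanks joined. Depth is unknown, so no limit from counting can be given for genes at low values such as Derl3.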
